A study of Homo sapiens with 66 samples.

Results

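Introns of fewer than 300 bp were examined in RNA of THP-1 cells in which hnRNPC, ADAR, or both had been targeted by CRISPR/Cas9. The members were the rows of the deposited intron table with an interval shorter than 300 bp, at least 1000 counts summed over the 48 libraries, and no overlap with an editing cluster region (ECR), which is a stretch of transcript with clustered A-to-I editing sites. Of 197626 introns in the table, 37472 were under 300 bp and 11844 of these had the counts, and 221 that overlapped an ECR were left out. The remaining 11623 short introns lay in 3986 host genes. Of them, 10681 lay inside 1 tested gene, 732 inside several, and 210 inside none. One member was found in each of 1872 hosts, and the most in a host was 43.

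An intron is transcribed with its gene and cut out by the spliceosome, which reads the 5′ splice site, the branch point, and a pyrimidine tract before the 3′ splice site. In a very short intron both splice sites can be recognized together across the intron, while around long introns they are paired across the exon. hnRNPC is an abundant nuclear RNA-binding protein that binds runs of U, and it is known for keeping cryptic splice sites in antisense Alu elements silent. ADAR deaminates adenosine to inosine in dsRNA, which is formed mostly by inverted Alu repeats, and the loss of both proteins can expose dsRNA to the sensor MDA5 and start a type I IFN response. Introns under 300 bp have little room for an Alu element.

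THP-1 cells come from a human monocytic leukemia. All those used here were STING deficient and cas9 transgenic, a background taken from 1 engineered line, so that no other genotype was sampled. They had been nucleofected with gRNAs against hnRNPC, ADAR, both (ADAR+hnRNPC), or GFP, or with the nontarget gRNA NC1 (CTRL), and were taken on days 3, 4, and 5. CTRL cells treated with IFN-α were taken on day 4. The 16 groups had 3 libraries each of ribosomal RNA-depleted total RNA from a nucleofected population, not from clones. The study describes independent experiments, but the labels number the replicates without tying a number to a culture, so p-values measure the spread between these libraries, which may be technical. Groups of a day were compared with the same 3 CTRL libraries, so the comparisons of a day are not independent of each other.

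HNRNPC RNA was 294 to 417 CPM (counts scaled to the gene total of each library) in the libraries with an hnRNPC gRNA and 725 to 869 CPM in all others, without overlap. ADAR RNA was 364, 355, and 392 CPM in ADAR-targeted and 417, 418, and 436 CPM in CTRL cells on day 3, and 349, 385, and 369 against 398, 416, and 397 CPM on day 4, without overlap on either day. On day 5 it was 373, 396, and 390 against 364, 412, and 406 CPM, which overlap. Some libraries of other groups without an ADAR gRNA lay in the ADAR-targeted range. Among them were hnRNPC-targeted replicate 1 of day 3 (391 CPM) and GFP-targeted replicate 1 of day 4 (372 CPM). In ADAR+hnRNPC-targeted cells of day 5, ADAR RNA was at 1165, 1290, and 1509 CPM. Of 8 monocytic marker genes, 5 had a median of 10 CPM or more (CD33, ITGAM, LYZ, SPI1, and CSF1R), while the defining markers CD14 and CD68 were at 0.419 and 0.116 CPM. Gene counts per library ranged from 95107690 to 152829008 and counts on the short introns from 1108343 to 1739271. Each of the 48 pairs of libraries of a group differed by more than counting noise over the short introns (chi-square per member 3.17 to 8.91).

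The short introns had a median width of 140 bp (quartiles 92 and 216). Of them, 3272 were 20 to 99 bp, 4538 were 100 to under 200 bp, and 3510 were 200 to under 300 bp long. A further 303 were under 20 bp, among them 36 of a single base. Such remnants arise because the authors defined introns as gene intervals without the exons of principal transcripts, so pieces at gene ends are rows of the table too. In GENCODE annotation on GRCh37, 5569 members (47.9%) were annotated introns free of any exon. Another 3606 (31.0%) were introns of 1 transcript that lay in full within an exon of another, and 1115 (9.59%) lay there in part. The ends of 1272 (10.9%) matched no annotated intron, and 61 (0.525%) held a small RNA gene. A read on an intron that is also exonic can stem from a spliced transcript, and a read across an exon end counts on both features, so counts on these short intervals are not counts of unspliced RNA alone.

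Of 10343 members of at least 40 bp with annotated ends, 10236 (98.97%) started with GT and ended with AG, 95 (0.918%) were GC-AG, and 7 (0.0677%) were AT-AC, the ends of some introns of the minor spliceosome. Their GC content had a median of 57.3% (quartiles 45.6 and 64.5), against 47.0% (36.9 and 56.5) in 17288 introns of 300 to under 1000 bp. A run of at least 5 T, the kind of stretch that hnRNPC binds as U, was found in 24.8% of the short and 65.7% of the longer introns. The T content before the 3′ end had a median of 31.25% in short and 40.6% in longer introns. Thus the short introns were GC-rich and held few U tracts, a difference in which length itself plays a part, since a longer sequence has more room for a run. At the width limit, 33 members 1 bp short of it had a median of 2734 counts over all libraries and 31 introns of 300 bp just outside had 2666. At the count limit, the 5 members just inside had 1000 counts each, and the 5 introns just outside had 1 count fewer.

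The sequences below are those of a few named members whose interval matched an annotated intron, and they are not a sample of the called introns. They are written 5′ to 3′ on the transcribed strand of GRCh37, with the first and last pair of bases and each run of at least 5 T in capitals. The first group comprises introns that were higher relative to their host on day 5 in hnRNPC-targeted cells (TCIRG1), in ADAR+hnRNPC-targeted cells (CHKB and FES), or in both (RPL24).

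TCIRG1 (chr11:67815272-67815348, plus strand, 81.8% GC): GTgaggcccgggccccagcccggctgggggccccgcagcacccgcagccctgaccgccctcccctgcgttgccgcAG

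RPL24 (chr3:101405402-101405515, minus strand, 55.3% GC): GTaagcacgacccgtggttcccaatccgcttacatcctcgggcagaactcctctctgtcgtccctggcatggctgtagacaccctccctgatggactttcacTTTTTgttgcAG

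CHKB (chr22:51018701-51018786, minus strand, 57.0% GC): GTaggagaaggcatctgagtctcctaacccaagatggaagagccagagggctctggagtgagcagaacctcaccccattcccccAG

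FES (chr15:91433509-91433630, plus strand, 73.0% GC): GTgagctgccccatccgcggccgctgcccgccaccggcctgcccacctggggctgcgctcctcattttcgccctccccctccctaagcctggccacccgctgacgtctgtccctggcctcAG

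The last group holds the INPPL1 intron, which was lower relative to its host in ADAR+hnRNPC-targeted cells. It also holds an intron each of the IFN-induced genes UBA7 and TYMP, which rose with their hosts after IFN-α and after ADAR+hnRNPC targeting.

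INPPL1 (chr11:71940275-71940508, plus strand, 53.4% GC): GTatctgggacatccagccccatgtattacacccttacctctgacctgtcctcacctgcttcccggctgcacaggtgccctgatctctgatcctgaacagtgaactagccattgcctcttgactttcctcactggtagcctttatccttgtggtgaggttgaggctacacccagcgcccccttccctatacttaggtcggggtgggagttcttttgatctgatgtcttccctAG

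UBA7 (chr3:49847617-49847695, minus strand, 60.8% GC): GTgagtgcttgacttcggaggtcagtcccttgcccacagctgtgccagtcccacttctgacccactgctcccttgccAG

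TYMP (chr22:50967768-50967924, minus strand, 70.7% GC): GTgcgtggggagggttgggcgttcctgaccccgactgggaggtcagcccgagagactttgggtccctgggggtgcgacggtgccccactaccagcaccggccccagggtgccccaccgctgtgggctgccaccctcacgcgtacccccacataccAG

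In CTRL cells, a short intron had a median of 0.575 counts per 100 counts of its host gene (quartiles 0.293 and 1.22). Of 10681 members in 1 tested host, 7376 were under 1 per 100, 210 over 10, and 13 over 50. Annotated introns free of exons had a median of 0.415 per 100, while those also exonic in full had 0.864 and those whose ends matched no annotated intron had 1.06. Width made little difference to this ratio, with medians of 0.615 under 20 bp, 0.543 at 20 to 99 bp, 0.535 at 100 to under 200 bp, and 0.666 at 200 to under 300 bp. All short introns together held 9.95 to 12.6 counts per 1000 gene counts in a library. On day 5 this was 10.99 ± 0.60 in CTRL, 11.7 ± 0.43 in hnRNPC-targeted, 11.6 ± 0.29 in ADAR-targeted, 11.6 ± 0.39 in GFP-targeted, and 10.2 ± 0.22 in ADAR+hnRNPC-targeted cells (SD, n = 3 each). The lowest CTRL library of day 5 lay just below the highest ADAR+hnRNPC-targeted library, so these 2 groups overlapped narrowly.

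The members with the most counts were few. The 10 highest held 8.41% of all short intron counts, and the median member had 2456 counts over the 48 libraries. The intron of CAP1, an actin-cycling protein, had 1574163. A single base of OAZ1, the antizyme of ornithine decarboxylase whose mRNA is read through a frameshift, had 1070387. The others were an intron of the elongation factor EEF1A1 (622550), 1 of HNRNPC (429412), 1 of the ribosomal protein gene RPS7 (416343), and the intron of the helicase gene EIF4A2 that holds the snoRNA SNORA63 (391260). On day 5, the CAP1 intron was at 2.30, 2.26, and 2.48 per 100 host counts in CTRL cells and at 2.19, 2.25, and 2.53 in ADAR+hnRNPC-targeted cells. The EIF4A2 intron spread far more within a group, with 15.2, 19.1, and 28.7 per 100 in CTRL cells of the same day. None of these 6 was called relative to its host on day 5, and their log2 changes ranged from −0.52 to 0.27 in the hnRNPC and ADAR+hnRNPC comparisons.

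Base composition shifted between libraries within the short introns. For each library, the log2 deviation from the CTRL mean of the day was computed for each member. Its median over 2698 GC-poor (under 45%) members was subtracted from its median over 2789 GC-rich (65% or more) members. The difference ranged from −0.225 to 0.265 in the 9 CTRL libraries, each set against the other CTRL libraries of its day. On day 5 it was 0.467 to 0.890 in hnRNPC-targeted, 0.298 to 0.583 in GFP-targeted, 0.248 to 0.486 in ADAR-targeted, and 0.310 to 0.373 in ADAR+hnRNPC-targeted cells, all above the 3 CTRL libraries of that day (−0.148 to 0.169). On days 3 and 4 the hnRNPC-targeted libraries lay at −0.361 to −0.208 and thus on the other side. Computed on the ratio to the host, the day 5 difference was smaller. It was 0.215 to 0.305 in hnRNPC-targeted, 0.160 to 0.193 in GFP-targeted, and 0.084 to 0.131 in ADAR-targeted cells. ADAR+hnRNPC-targeted cells had 0.121 to 0.149 and CTRL cells −0.003 to 0.007. On that scale hnRNPC-targeted libraries had −0.101 to −0.078 on day 3. On day 4 they had −0.061 to 0.003, which overlaps CTRL (−0.046 to 0.035). GC-rich short introns therefore stood higher on day 5 in every targeted group, GFP included, so the outcome with GFP-targeted cells as the control is given for most of the named introns called on day 5. The part of this shift in those results was not tested.

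**Figure D1:**
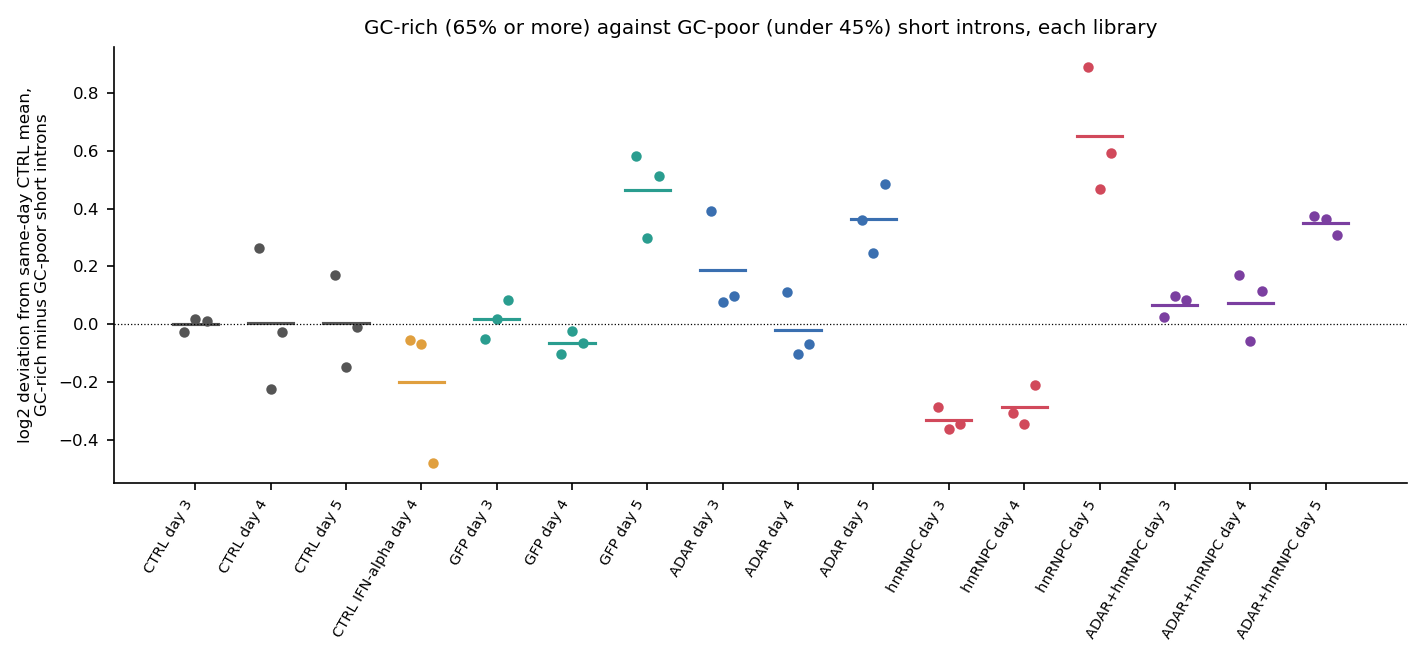
Each point is a library, and the y axis gives the median log2 deviation from CTRL cells of the same day of GC-rich minus that of GC-poor short introns. The horizontal bars are means of 3. The day 5 libraries of all 4 targeted groups lie between 0.248 and 0.890, above the CTRL libraries of day 5, and the hnRNPC-targeted libraries of days 3 and 4 lie between −0.361 and −0.208.

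To ask whether the loss of hnRNPC changes short introns beyond their genes, intron counts were compared between hnRNPC-targeted and CTRL cells relative to the host gene. In all, 20330 introns passed the filter on low counts (mean log2 CPM 1 or more), of which 795 were short. An intron was called at a log2 change of at least 1 in either direction and an adjusted p of at most 0.05 (edgeR quasi-likelihood test). On day 3, 1 short intron was higher and 0 lower (95 of 795 were at an unadjusted p under 0.05 in either direction), beside 3.57% higher and 0.0443% lower among all introns tested. On day 4, 2 were higher and 3 lower, against 4.78% and 0.197% of all introns. On day 5, 11 were higher (1.38%) and 2 lower (0.252%), against 5.06% and 0.472% of all introns. Shares of short introns called higher were thus below the background on each of the 3 days.

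The largest rise was in HNRNPC itself. The intron at chr14:21679466-21679564 (99 bp, 51.5% GC) is spliced out of 1 transcript and lies in an exon of another. It was at 1.01, 1.01, and 0.981 per 100 host counts in CTRL cells and at 3.48, 3.39, and 2.98 in hnRNPC-targeted cells on day 5. ADAR-targeted cells had 1.06, 0.978, and 1.08 and GFP-targeted cells 0.875, 0.928, and 0.960. With 3.01, 2.59, and 2.28 in ADAR+hnRNPC-targeted cells, all libraries with an hnRNPC gRNA lay above all others of the day. In hnRNPC-targeted cells the log2 change grew from 1.33 on day 3 and 1.502 on day 4 to 1.71 on day 5 (standard error 0.11, adjusted p = 2.42e-15, edgeR). Its abundance went from 8.23, 8.77, and 8.03 CPM to 10.8, 10.95, and 9.38 CPM (0.32, standard error 0.10, adjusted p = 0.0186, edgeR), under the size of a call, while the host fell by 1.39 on the log2 scale. In bulk RNA, fewer cells of a kind and less RNA per cell cannot be told apart. A second HNRNPC intron, at chr14:21679723-21679968 (246 bp), followed the gene, with 11.5, 11.7, and 12.2 per 100 in CTRL and 11.5, 12.1, and 12.4 in hnRNPC-targeted cells (log2 change 0.03). Its abundance fell by 1.37 on the log2 scale, from 92.9, 102, and 99.9 CPM to 35.9, 39.1, and 39.0 CPM (standard error 0.09, adjusted p = 2.11e-14, edgeR). A further piece at the gene's start, chr14:21737564-21737653 (90 bp), fell in the same way, by 1.44 on the log2 scale (standard error 0.12). Within 1 gene, a short intron was thus no lower while 2 others fell with the mRNA.

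The intron of MLC1, a membrane protein known best from astrocytes, moved the other way. It was the only 1 of the 13 members called on day 5 that is an annotated intron free of any exon. Per 100 host counts it was at 1.16, 1.12, and 1.13 in CTRL cells and at 0.332, 0.481, and 0.485 in hnRNPC-targeted cells on day 5. ADAR- and GFP-targeted cells had 0.944 to 1.25, so the hnRNPC-targeted libraries were below all others of the day. The log2 changes for days 3, 4, and 5 were −0.81, −1.09, and −1.39 (standard error 0.14, adjusted p = 4.04e-10, edgeR). In abundance the intron fell by 2.31 on the log2 scale, from 4.38, 4.54, and 4.35 CPM to 0.734, 0.972, and 0.967 CPM. The host fell by 0.91.

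NDUFC1, a subunit of respiratory complex I, had a piece of 244 bp (chr4:140222365-140222608) whose ends match no annotated intron. It was at 1.58, 1.52, and 1.85 per 100 host counts in CTRL cells and at 5.22, 5.01, and 4.34 in hnRNPC-targeted cells on day 5. The GFP-targeted libraries had 1.94, 1.55, and 1.40, so there was no overlap. The log2 changes for days 3, 4, and 5 were 0.46, 1.02, and 1.56 (standard error 0.20, adjusted p = 1.12e-07, edgeR). The 99-bp intron of TK1 (chr17:76171032-76171130, 69.7% GC), a thymidine kinase of dividing cells, rose from 1.42, 1.49, and 1.49 to 3.29, 2.89, and 3.35 per 100. GFP-targeted cells had 1.40, 1.85, and 1.503, again without overlap (log2 change 1.12, standard error 0.13, adjusted p = 1.16e-08, edgeR).

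**Figure D2:**
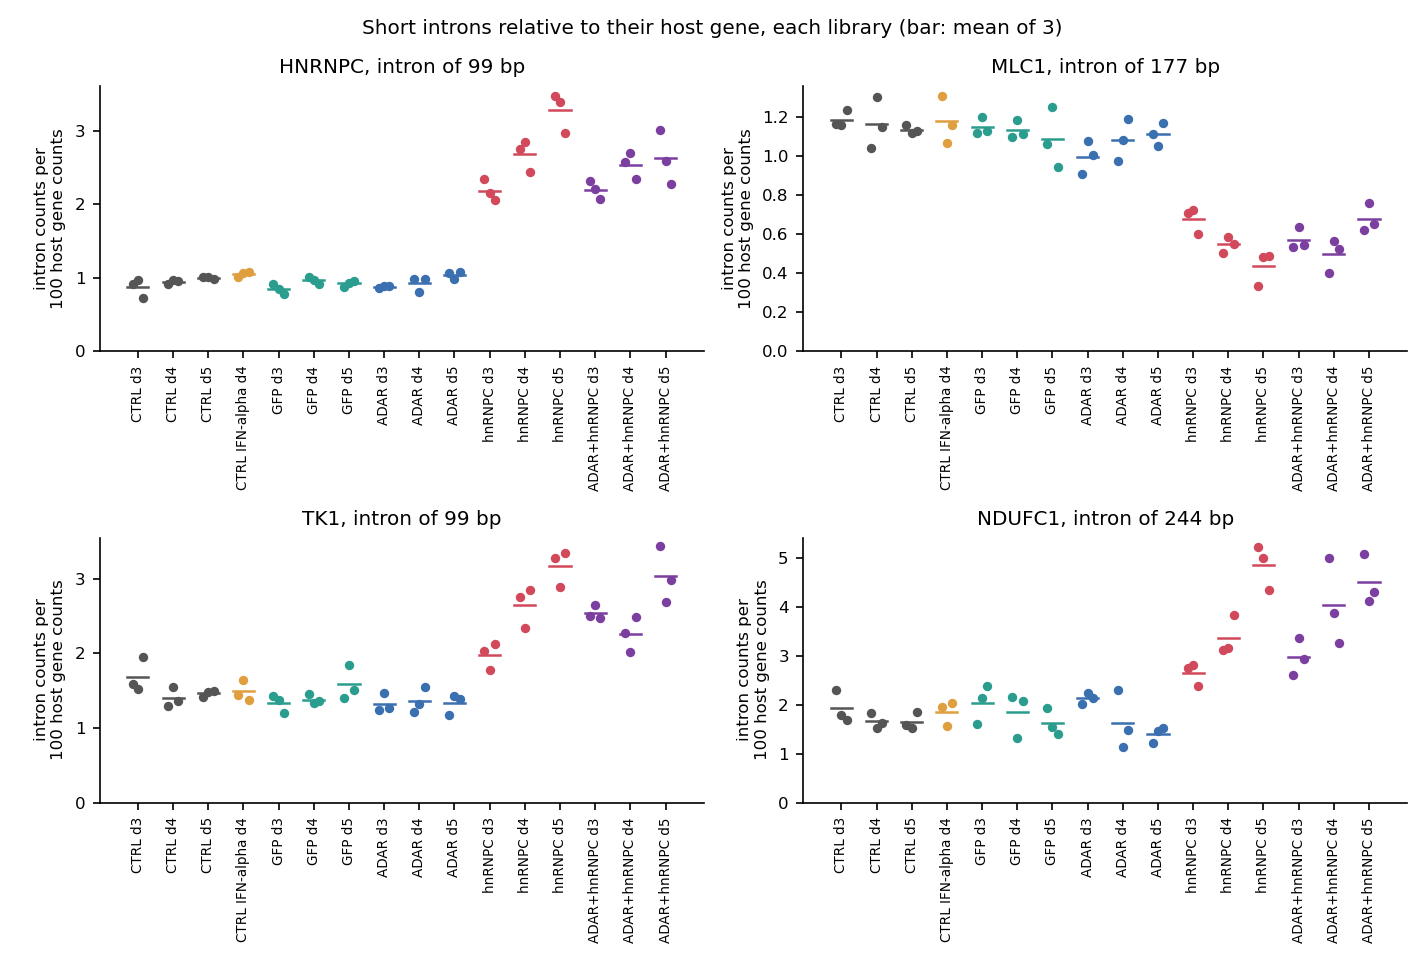
Each point is a library and each bar the mean of 3, and the y axes give intron counts per 100 host gene counts for short introns of HNRNPC, MLC1, TK1, and NDUFC1 in all 16 groups. The hnRNPC- and ADAR+hnRNPC-targeted libraries stand apart from the rest on day 5, above them for HNRNPC, TK1, and NDUFC1 and below them for MLC1.

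Intron counts in DBNL, an actin-binding adaptor, came from chr7:44104612-44104714 (103 bp, 68.0% GC), an interval that is an intron of PGAM2 on the opposite strand. Its ratio was 0.851, 0.487, and 0.745 in CTRL, 2.36, 1.63, and 2.02 in hnRNPC-targeted, and 0.995, 0.865, and 0.903 in GFP-targeted cells (log2 change 1.53, standard error 0.19, adjusted p = 6.07e-08, edgeR). As the strand setting of the counting is not given in the sources used here, reads of DBNL and PGAM2 cannot be told apart. The RPL24 intron shown above, of a ribosomal protein gene, rose from 0.311, 0.336, and 0.374 to 0.737, 0.725, and 0.691 per 100 (log2 change 1.08, standard error 0.19, adjusted p = 4.11e-05, edgeR). GFP-targeted cells had 0.346, 0.484, and 0.501, which overlap CTRL cells and lie below hnRNPC-targeted cells.

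A further 4 members rose against CTRL cells of day 5 by amounts that GFP-targeted cells shared in part. The intron of TCIRG1, a subunit of the vacuolar proton pump, was at 1.10, 0.645, and 0.861 per 100 host counts in CTRL, 2.17, 1.62, and 1.94 in hnRNPC-targeted, and 1.28, 1.52, and 1.38 in GFP-targeted cells. For STT3B, a catalytic subunit of the oligosaccharyltransferase, a piece at chr3:31574130-31574281 had 0.400, 0.324, and 0.449 in CTRL, 1.30, 0.640, and 1.08 in hnRNPC-targeted, and 1.03, 0.732, and 0.858 in GFP-targeted cells. On day 4 it fell by 1.17 on the log2 scale against CTRL cells of that day, whose ratio was 1.05, 0.657, and 1.12. A single base of the dynein light chain gene DYNLT5 (chr1:67218142) had 4.14, 3.06, and 3.36 in CTRL, 8.77, 6.84, and 6.89 in hnRNPC-targeted, and 6.65, 6.10, and 6.81 in GFP-targeted cells. For MFSD10, a transporter (chr4:2932681-2932787, 73.8% GC), the values were 1.51, 1.05, and 1.11, then 3.07, 2.25, and 2.75, then 1.58, 1.44, and 1.51. Against CTRL cells, the log2 changes were 1.13 for TCIRG1 (standard error 0.20, adjusted p = 3.6e-05), 1.36 for STT3B (0.31, 0.00114), 1.09 for DYNLT5 (0.20, 5.18e-05), and 1.14 for MFSD10 (0.16, 7.38e-07, all edgeR). With GFP-targeted cells in place of CTRL cells, the log2 changes were 0.46 for TCIRG1, 0.21 for STT3B, 0.20 for DYNLT5, 0.83 for MFSD10, and 0.70 for RPL24, and none of these was called. HNRNPC (1.83), NDUFC1 (1.57), MLC1 (−1.33), DBNL (1.12), and TK1 (1.00) kept their calls under that control.

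The remaining calls were ACY1, an aminoacylase, and 2 introns outside the naming rule that are given because they complete the count. The ACY1 piece (23 bp, chr3:52023191-52023213) went from 77.3, 100, and 78.5 to 42.1, 29.6, and 36.1 per 100 host counts (log2 change −1.25, standard error 0.29, adjusted p = 0.00145, edgeR), with 64.9, 53.6, and 78.9 in GFP-targeted cells. With these as the control, the log2 change of ACY1 was −0.87 and no longer a call. Short introns of SSNA1 (log2 change 1.02) and of TASOR (1.01), both chosen after their values were seen, rose. On day 4 an intron piece of PPP4R3A, chosen in the same way, fell by 1.18 on the log2 scale.

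In abundance, which is not set against the host, 866 short introns of 21798 introns were tested. On day 3, 1 was higher and 6 lower, against 2.49% and 0.138% of all introns. On day 4, 4 were higher and 9 lower, against 3.57% and 0.505%. On day 5, 29 were higher (3.35%) and 17 lower (1.96%), beside 4.0% and 2.35% of all introns. With GFP-targeted cells as the control, the day 5 counts were 5 higher and 17 lower. PIDD1, a death domain protein, had an intron at chr11:802892-803173 with 2.76, 1.57, and 1.76 CPM in CTRL and 9.86, 6.43, and 4.93 CPM in hnRNPC-targeted cells (log2 fold change 1.80, standard error 0.33). Its host rose by 1.59, and GFP-targeted cells had 3.66, 3.04, and 2.33 CPM. The intron of ARAP1, a GTPase-activating protein, rose from 1.66, 0.942, and 1.71 to 4.76, 3.69, and 3.81 CPM (1.51, standard error 0.29; host 0.90), with 2.06, 1.90, and 2.18 CPM in GFP-targeted cells. Other introns fell alongside their genes. NCKAP1L, a subunit of the WAVE complex of blood cells, went from 3.30, 3.73, and 4.06 to 1.41, 1.86, and 1.46 CPM (−1.23, standard error 0.15; host −1.82). LARS1, the leucyl-tRNA synthetase, went from 5.41, 5.72, and 5.58 to 2.36, 2.53, and 2.44 CPM (−1.19, standard error 0.11; host −1.33). A single base of PLEKHA2, an adaptor with pleckstrin homology domains, went from 2.86, 3.65, and 2.82 to 1.45, 1.17, and 1.11 CPM (−1.32, standard error 0.13; host −1.47). In none of these introns did CTRL and hnRNPC-targeted libraries overlap. With GFP-targeted cells as the control, PIDD1 (1.23), NCKAP1L (−1.26), LARS1 (−1.27), and PLEKHA2 (−1.14) kept their calls, while ARAP1 (0.997) did not.

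Only 866 members passed the filter on low counts, so all introns with a summed count of at least 1000 were also fitted, which takes in every member. In abundance, 22 short introns were higher and 59 lower on day 3 (background 1.44% and 0.208%), 75 and 213 on day 4 (2.48% and 0.873%), and 784 and 185 on day 5 (4.52% and 2.61%). The 784 were 6.75% of the 11623. Set against the host, 22 were higher and 12 lower on day 3 (2.17% and 0.062%), 52 and 48 on day 4 (3.02% and 0.223%), and 225 and 33 on day 5 (3.7% and 0.548%). The 225 were 2.11% of 10681. Among the 690 members with a host that were called higher in abundance on day 5, the median log2 change was 1.34 for the intron and 0.59 for the host. In 136 of these the host was also called higher, and 153 were called relative to the host.

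Width set the short introns apart more from long introns than among themselves. On day 5, 2.46% of introns under 100 bp, 2.01% of those of 100 to under 200 bp, and 1.86% of those of 200 to under 300 bp were called higher relative to the host. The share was 2.11% at 300 to under 1000 bp, 4.27% at 1000 bp or more, and 7.55% in introns with an ECR. On day 3 the shares were 0.206% in all short introns, 0.651% at 300 to under 1000 bp, 2.77% at 1000 bp or more, and 6.06% with an ECR, and on day 4 they were 0.487%, 1.14%, 3.83%, and 6.97%. These are counts over all tested introns with no test of the difference, and the number of counts behind an intron was not held equal across widths. Nor was the part of reads that stem from spliced transcripts. The median log2 change on day 3 was 0.07 in short introns, 0.12 at 300 to under 1000 bp, 0.21 at 1000 bp or more, and 0.24 with an ECR, a quantity that does not depend on a call.

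**Figure D3:**
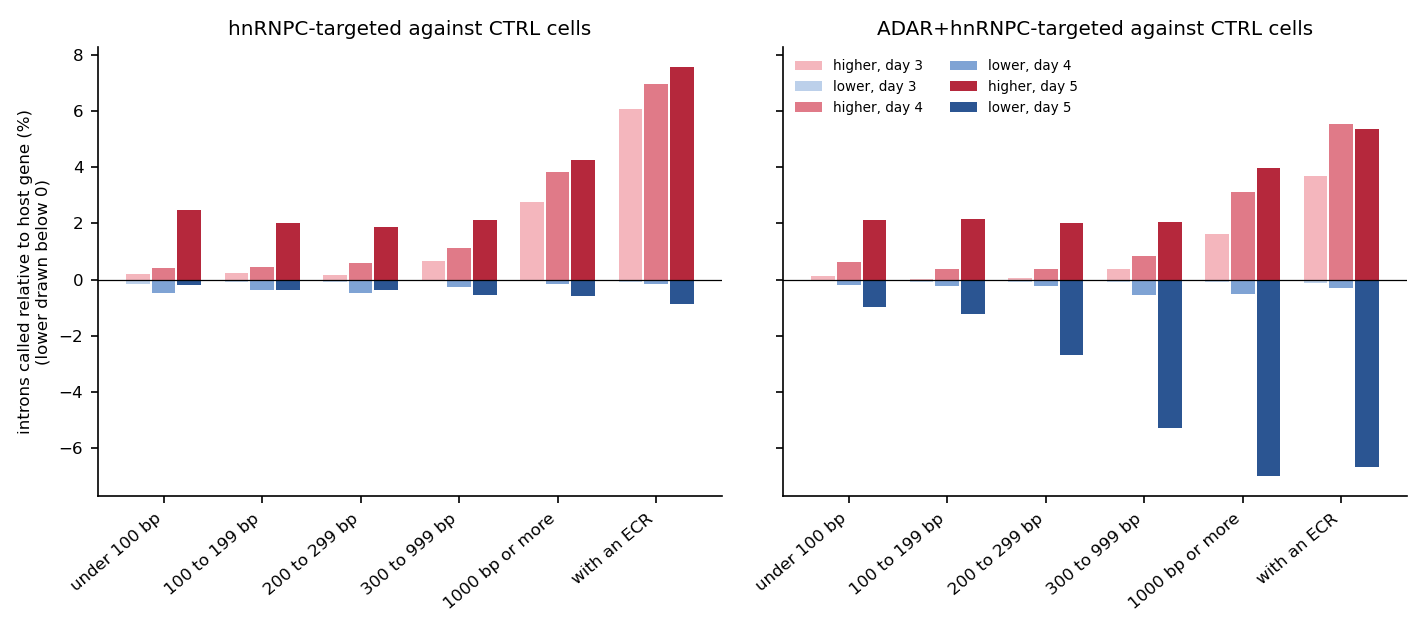
Bars give the percentage of introns called higher (above 0) or lower (drawn below 0) relative to the host gene by width class and day, for hnRNPC-targeted (left) and ADAR+hnRNPC-targeted (right) cells against CTRL cells, over all introns with at least 1000 counts. In hnRNPC-targeted cells the share called higher rises from 0.206% of all short introns to 6.06% of introns with an ECR on day 3, and on day 5 of double targeting the share called lower rises from 0.973% under 100 bp to 6.98% at 1000 bp or more.

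Among the short introns, calls differed by class and by base composition. On day 5 of hnRNPC targeting, 57 of 5291 annotated introns free of exons (1.08%) were called higher relative to the host, against 86 of 3208 that were also exonic in full (2.68%) and 61 of 1069 whose ends matched no annotated intron (5.71%). By GC content, 5 of 1939 members under 40% GC (0.258%) and 75 of 1088 of 70% or more (6.89%) were called higher, with shares of 1.15%, 1.41%, and 2.47% in the classes between. The median log2 change rose over these 5 classes from 0.01 to 0.31. In GFP-targeted cells of day 5 the medians of the lowest and highest class were −0.03 and 0.22, with 0 members called. On day 4 the order was the other way in hnRNPC-targeted cells, with 2 of 1088 members of 70% GC or more called higher and 23 lower (median −0.05). The 163 members with annotated ends that were called higher on day 5 had a median GC content of 66.5%, and 7.98% held a run of at least 5 T. The 25 called lower had 53.6% GC, and 40% held a run, against 57.3% GC and 25.1% in 9416 members that were not called. The median width was 182 bp in the members called lower, 123 bp in those called higher, and 146 bp in the rest, so the room for a run differed as well, and these shares were not tested. On day 4 a run was held by 23.7% of the 38 called higher, 38.9% of the 18 called lower, and 24.9% of the rest.

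When ADAR and hnRNPC were targeted together, 1 short intron was higher and 1 lower relative to the host on day 3 (all introns 2.33% and 0.0738%), and 3 were higher and 2 lower on day 4 (4.24% and 0.364%). On day 5, 10 were higher (1.26%) and 5 lower (0.629%), beside 4.56% and 4.6% of all introns. HNRNPC (1.39), NDUFC1 (1.45), DBNL (1.37), and TK1 (1.05) were higher on day 5 as log2 changes relative to the host, as they were in hnRNPC-targeted cells of that day. The MLC1 intron was called lower on days 3 (−1.06) and 4 (−1.23). On day 5 its ratio was 0.619, 0.756, and 0.648 per 100, between CTRL and hnRNPC-targeted cells (log2 change −0.75, standard error 0.14, adjusted p = 5e-05, edgeR), which is under the size needed for a call.

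Introns of PPIH, a cyclophilin of the U4/U6 particle of the spliceosome, and of SLC25A3, the phosphate carrier of mitochondria, stood out in ADAR+hnRNPC-targeted cells. The PPIH intron (chr1:43124923-43125192) was at 1.98, 1.89, and 1.71 per 100 host counts in CTRL, 4.31, 4.25, and 4.38 in ADAR+hnRNPC-targeted, and 2.70, 2.30, and 2.88 in hnRNPC-targeted cells (log2 change 1.21 against CTRL, standard error 0.12, adjusted p = 4.87e-10, edgeR). The SLC25A3 piece (chr12:98989336-98989504) was at 0.356, 0.295, and 0.319 in CTRL and 0.855, 0.837, and 0.981 in ADAR+hnRNPC-targeted cells (1.46, standard error 0.23, adjusted p = 3.81e-06, edgeR). Its host fell by 1.02 on the log2 scale while the intron went from 2.22, 1.93, and 2.05 CPM to 2.90, 2.65, and 2.87 CPM. RPL24 behaved alike. Its ratio reached 0.840, 0.940, and 1.08 (1.48, standard error 0.19, adjusted p = 1.19e-07, edgeR) and its host fell by 1.00. For both introns the abundance moved by less than 0.5 on the log2 scale and was not called, with 0.48 for RPL24 and 0.44 for SLC25A3.

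The FES intron (73.0% GC), of a tyrosine kinase of myeloid cells, rose from 0.669, 0.579, and 0.840 to 1.48, 1.63, and 1.55 per 100 host counts (1.16, standard error 0.15, adjusted p = 1.11e-07, edgeR). In hnRNPC-targeted cells it was 0.999, 0.802, and 1.04 and in GFP-targeted cells 0.905, 1.07, and 0.898, which overlap each other. The CHKB intron lies in a gene for choline kinase and is also exonic in full. It had 37.8, 53.9, and 42.6 counts per 100 host counts in CTRL and 106, 134, and 104 in ADAR+hnRNPC-targeted cells, while hnRNPC-targeted cells (41.3, 42.7, and 60.05) and ADAR-targeted cells (50.8, 34.2, and 34.1) overlapped CTRL. The log2 change was 1.36 (standard error 0.20, adjusted p = 1.54e-06, edgeR), and the response to hnRNPC targeting was larger with than without ADAR targeting by 1.42 on the log2 scale (standard error 0.28, adjusted p = 0.00269, edgeR). In CPM the intron went from 2.02, 1.72, and 1.90 to 3.67, 3.53, and 4.12. With ratios over 100 the interval held more counts than its host gene, so the CHKB ratio is not a measure of unspliced RNA per mRNA. An 83-bp intron of EEF1A1 at chr6:74228572-74228654, outside the naming rule and given to complete the 10, had a log2 change of 1.13.

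The introns that were lower relative to the host included that of INPPL1, the lipid phosphatase SHIP2. It is an annotated intron free of exons and went from 1.26, 0.890, and 1.24 to 0.443, 0.472, and 0.719 per 100 host counts, without overlap (−1.06, standard error 0.29, adjusted p = 0.00478, edgeR). Over 13 alternative fits its call was kept in 8 and lost in 5, with log2 changes from −1.31 to −0.48. Another INPPL1 intron (chr11:71944567-71944698), chosen after its value was seen, had −1.01. A piece of SLC30A7, a zinc transporter of the Golgi, at chr1:101440555-101440774 went from 3.33, 3.67, and 3.82 to 1.41, 1.46, and 1.44 (−1.33, standard error 0.11, adjusted p = 3.4e-12, edgeR). In hnRNPC-targeted cells it was 2.08, 2.04, and 1.86, between the others. Other hosts rose more than their intron. DDIT3, the stress transcription factor CHOP, rose by 1.71 on the log2 scale while its intron went from 11.7, 9.39, and 8.93 to 4.64, 3.98, and 5.09 per 100 host counts (−1.13, standard error 0.23, adjusted p = 0.000221, edgeR). The gene ENSG00000124593 rose by 1.95 and its piece at chr6:41755111-41755399 went from 82.2, 80.1, and 70.7 to 39.95, 35.0, and 32.7 (−1.11, standard error 0.18, adjusted p = 5.58e-06, edgeR). Against the other introns of that gene instead of its exons, this value was 0.978, of the opposite sign.

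With GFP-targeted cells in place of CTRL cells, 6 short introns were higher and 4 lower relative to the host on day 5. The log2 changes of FES (0.70), DBNL (0.96), TK1 (0.94), and ENSG00000124593 (−0.88) were then under the size of a call. CHKB (1.22), HNRNPC (1.51), NDUFC1 (1.46), PPIH (1.17), RPL24 (1.10), SLC25A3 (1.35), SLC30A7 (−1.20), DDIT3 (−1.16), and INPPL1 (−1.10) kept their calls.

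Of the 15 calls, only the INPPL1 intron at chr11:71940275-71940508 was an annotated intron free of any exon. With every member included, 7 short introns were higher and 8 lower relative to the host on day 3 (background 1.26% and 0.0956%), 48 and 24 on day 4 (2.45% and 0.488%), and 225 and 170 on day 5 (3.43% and 6.04%). By class on day 5, 42 of 5291 introns free of exons (0.794%), 88 of 3208 also exonic in full (2.74%), and 62 of 1069 with ends that match no annotated intron (5.80%) were called higher. The share called lower on day 5 was 0.973% under 100 bp, 1.22% at 100 to under 200 bp, and 2.70% at 200 to under 300 bp, and it was 5.29% at 300 to under 1000 bp, 6.98% at 1000 bp or more, and 6.68% with an ECR. Median log2 changes relative to the host were −0.02 in short introns, −0.21 at 300 to under 1000 bp, −0.23 at 1000 bp or more, and −0.16 with an ECR. Counts on short introns thus kept pace with their genes on day 5 while those of the longer classes fell behind in the median, a difference given as a description. Only 47.9% of the short introns were annotated introns free of exons, and reads across exon ends count on them too. The part of reads from spliced transcripts in this difference was not tested.

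For abundance in ADAR+hnRNPC-targeted cells, 1 short intron was higher and 4 lower on day 3 (all introns 1.68% and 0.161%), and 7 were higher and 7 lower on day 4 (3.57% and 0.711%). On day 5, 29 were higher (3.35%) and 101 lower (11.7%), beside 5.49% and 8.03% of all introns. The split depended on the scaling. With library sizes taken from intron totals, 55 were higher and 27 lower, and the median of the tested members moved from −0.43 to −0.18 on the log2 scale. With GFP-targeted cells as the control, 16 were higher and 121 lower. In the fit of all introns with at least 1000 counts, 20 and 26 members were higher and lower on day 3 (0.937% and 0.183%), 172 and 118 on day 4 (3.1% and 1.16%), and 695 and 795 on day 5 (6.62% and 8.58%). Of 741 members with a host that were lower on day 5, the host was also called lower in 276 and 76 were called relative to the host. Their median log2 changes were −1.25 for the intron and −0.89 for the host.

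Many of the members that fell lay in ribosomal protein genes. Of 123 such members in 59 hosts, 88 were tested, 0 were higher, and 25 lower, with a median log2 fold change of −0.79 beside −0.43 over all short introns tested. With intron totals 3 were called, at a median of −0.54. Their median relative to the host was 0.01, and RPL24 was the only 1 called. The RPS7 intron (73.5% GC) went from 79.2, 90.5, and 76.3 CPM to 41.9, 38.5, and 34.8 CPM, without overlap (−1.09, standard error 0.10, adjusted p = 2.3e-11, edgeR). Per 100 host counts it was 8.31, 8.70, and 7.97 in CTRL and 8.12, 8.39, and 7.95 in ADAR+hnRNPC-targeted cells, so it moved with the mRNA. With GFP-targeted cells as the control its fall of 0.99 on the log2 scale was just under a call. In hnRNPC-targeted cells of day 5 none of the 88 was called (median −0.33).

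Other groups of hosts had smaller numbers of calls, to be read beside the 8.03% of all introns and 11.7% of short introns that were lower. Of 274 members in splicing factor genes, 45 were tested and 9 were lower (median −0.62), or 2 with intron totals. Of 160 in snoRNA host genes, 67 were tested and 11 were lower (median −0.66), or 2 with intron totals. Of 63 in genes known for detained introns, which stay in nuclear polyadenylated RNA, 14 were tested and 3 were lower (median −0.73), or 1 with intron totals (median −0.47). One of these was the 206-bp intron of HNRNPH1, a splicing regulator, which went from 24.8, 16.4, and 20.8 to 6.19, 7.78, and 6.58 CPM (−1.59, standard error 0.39, adjusted p = 0.000905, edgeR). Of 68 in monocyte and granule genes, 15 were tested and 3 were lower (median 0.02). A 34-bp piece of CTSG, a granule protease, went from 43.0, 47.1, and 48.4 to 13.7, 13.5, and 11.3 CPM (−1.85, standard error 0.10, adjusted p = 6.48e-18, edgeR), with a fall of its host by 1.39. For MS4A3, a membrane protein of myeloid precursors, values went from 10.8, 10.2, and 11.1 to 3.66, 3.80, and 2.71 CPM (−1.66; host −1.76). A 102-bp interval shared by FDPS, which makes farnesyl diphosphate, and the antisense gene RUSC1-AS1 fell from 3.84, 3.60, and 4.87 to 1.41, 1.08, and 1.40 CPM (−1.66), and reads of the 2 genes cannot be told apart there. The 3-bp piece of LAMP5 fell by 1.67 on the log2 scale. Set against GFP-targeted cells, HNRNPH1 (−1.44), CTSG (−1.68), MS4A3 (−1.68), FDPS (−1.61), and LAMP5 (−1.48) kept their calls.

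Among the members with the most counts of each list, a 9-bp piece of RPL6, of the ribosomal protein list, went from 52.1, 56.8, and 49.2 CPM in CTRL to 26.8, 21.7, and 20.2 CPM on day 5 of double targeting (−1.20, standard error 0.16, adjusted p = 6.18e-08, edgeR; host −1.14), and with GFP-targeted cells as the control the change of RPL6 was −0.96 and no longer a call. The piece of SNRNP70, the U1 snRNP protein, was at 11.3, 12.9, and 11.04 per 100 in CTRL and 11.2, 12.1, and 10.3 in ADAR+hnRNPC-targeted cells, which overlap. For PSMA5, a core proteasome subunit, the values were 13.1, 12.5, and 11.1 and 11.8, 12.5, and 11.9, which overlap as well. The intron of CYBA, a subunit of the NADPH oxidase of phagocytes, was at 16.5, 15.9, and 15.1 CPM in CTRL and 33.9, 26.3, and 25.2 CPM in hnRNPC-targeted cells of day 5 without overlap (0.85, under the size of a call; host 0.97). The intron of UPF1, the helicase of nonsense-mediated decay, was under the filter on low counts, at 1.41, 1.35, and 1.39 CPM in CTRL and 1.12, 1.39, and 0.773 CPM in ADAR+hnRNPC-targeted cells.

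The remaining lists had few calls in either comparison. In ADAR+hnRNPC-targeted cells of day 5, 1 of 15 tested members in oxidative phosphorylation genes was higher and 1 lower, and none of 12 in proteasome subunit genes or 5 in aminoacyl-tRNA synthetase genes was called. In hnRNPC-targeted cells of day 5, 1 of the 15 was higher, which was NDUFC1, and 1 of the 5 was lower, which was LARS1. Of the 45 in splicing factor genes, 2 were lower in hnRNPC-targeted cells, both in HNRNPC itself, and of the 15 in monocyte and granule genes 1 was lower, the CTSG piece (−1.10, and −0.93 without a call against GFP-targeted cells). For synthetase genes all 120 members could be read in the fit of introns with at least 1000 counts, where 10 were lower after hnRNPC targeting (2.61% of all introns) and 14 were lower and 2 higher after double targeting (8.58% and 6.62%). None of the 31 members in genes for nonsense-mediated decay passed the filter on low counts, and 2 were higher in the larger fit after double targeting.

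Among the members with the largest rise in ADAR+hnRNPC-targeted cells, those of ZC3HAV1 and TYMP lay in a list of IFN-induced genes, while those of UNC93B1, MOV10, and COL9A2 lay outside it. ZC3HAV1, the zinc finger antiviral protein, had a 71-bp piece at chr7:138794395-138794465 that went from 1.41, 1.36, and 1.51 to 6.46, 7.18, and 9.64 CPM (2.44, standard error 0.21, adjusted p = 1.84e-12, edgeR; host 1.66). In IFN-α-treated CTRL cells the same piece was at 1.40, 1.74, and 1.61 CPM, beside 1.97, 1.77, and 1.94 in untreated cells (−0.26). The intron of TYMP, a thymidine phosphorylase, went from 1.15, 0.722, and 1.06 to 4.76, 4.61, and 6.34 CPM (2.42, standard error 0.23; host 2.20). The intron of UNC93B1, which escorts Toll-like receptors to endosomes, went from 2.90, 1.84, and 2.40 to 7.12, 7.08, and 9.77 CPM (1.75, standard error 0.23). The intron of MOV10, an RNA helicase, went from 1.89, 1.16, and 1.66 to 4.55, 3.92, and 4.74 CPM (1.49; host 1.29), and that of COL9A2, a collagen chain, from 2.96, 2.05, and 2.40 to 7.44, 7.89, and 7.26 CPM (1.61; host 0.89). None of these 5 overlapped CTRL cells. Set against GFP-targeted cells, ZC3HAV1 (2.13), TYMP (1.45), UNC93B1 (1.47), MOV10 (1.33), and COL9A2 (1.22) kept their calls.

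Whether the response to hnRNPC targeting depended on ADAR was tested on day 5 as an interaction. In the ratio to the host, 1 short intron (CHKB) was higher and 2 lower, beside 0.974% of all introns in either direction. The 2 were TYMP (−1.02) and an intron of UAP1L1 (−1.08), the latter chosen after its value was seen. TYMP was at 4.98, 3.85, and 4.93 per 100 host counts in CTRL, 8.47, 8.57, and 6.91 in hnRNPC-targeted, 5.71, 6.05, and 7.29 in ADAR-targeted, and 6.03, 5.05, and 5.28 in ADAR+hnRNPC-targeted cells, so hnRNPC-targeted cells overlapped only ADAR-targeted cells. In abundance, 10 members had a positive (1.15%) and 63 a negative interaction (7.27%), beside 2.26% and 2.59% of all introns. The median interaction was −0.45 over the tested members and −0.14 over all introns, so the members as a whole lay below 0. CTRL cells of day 5 enter this difference, and the part of their shift in base composition against every targeted group was not tested. The effect of the scaling on this split was not assessed. With all members, 2 were higher and 26 lower relative to the host (all introns 0.0750% and 0.483%).

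Targeting ADAR alone changed no short intron past the threshold. In abundance 0 of 866 were called on days 3, 4, and 5, with 39, 83, and 111 at an unadjusted p under 0.05, and all introns gave 0.0%, 0.0%, and 0.0%. Relative to the host 0 of 795 were called, with 28, 64, and 65 at an unadjusted p under 0.05 (all introns 0.0% on each day). For GFP targeting, 0 were called in abundance with 41, 60, and 131 at an unadjusted p under 0.05, beside 0.0%, 0.0%, and 0.00459% of all introns. Relative to the host 0 were called, with 32, 56, and 78 at an unadjusted p under 0.05 (all introns 0.0% on each day). DESeq2 called 1 short intron in abundance in GFP-targeted cells of day 5 and 0 in the other 5 of these comparisons. With the replicate number of a day as a block, edgeR called 2 short introns higher in abundance in GFP-targeted cells of day 5. By the rule no member overlapped an ECR, where clustered editing sites lie, so few sites could be left in the members. There were 272 sites in 54 members (0.465%, against 2.74% of introns of 300 to under 1000 bp, also taken without an ECR). Pooled over libraries, 0.919% of reads at these sites were edited in CTRL cells (libraries 0.686 to 1.30%), 0.600% in ADAR-targeted (0.409 to 0.903%), 0.630% in ADAR+hnRNPC-targeted (0.422 to 1.05%), 1.04% in hnRNPC-targeted (0.651 to 1.24%), 0.808% in GFP-targeted (0.559 to 1.26%), and 1.37% in IFN-α-treated cells (1.26 to 1.60%). The ranges of the untreated groups overlapped.

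IFN-α-treated CTRL cells were compared with untreated ones to set an IFN response without gene targeting beside the targeted cells. Treated cells had 9 short introns higher and 0 lower in abundance, beside 0.821% and 0.0229% of all introns. Relative to the host none was called, with 98 of 795 at an unadjusted p under 0.05, beside 0.059% higher and 0.0492% lower among all introns. The 9 lay in 4 genes: 4 in UBA7, 2 in PSME2, 2 in UNC93B1, and 1 in TYMP. The UBA7 intron shown above, in the gene of the activating enzyme for ISG15, went from 2.40, 1.88, and 1.59 to 7.78, 6.06, and 6.37 CPM (1.79, standard error 0.25, adjusted p = 4.36e-06, edgeR; host 1.71). PSME2, a subunit of the proteasome activator PA28, had an intron (chr14:24614365-24614451) that went from 3.41, 3.22, and 3.41 to 8.93, 9.35, and 11.7 CPM (1.58, standard error 0.13, adjusted p = 8.4e-12, edgeR; host 1.21). The UNC93B1 intron went from 2.86, 2.38, and 2.34 to 6.82, 4.86, and 5.98 CPM (1.22, standard error 0.23; host 0.90) and that of TYMP from 2.24, 1.23, and 1.46 to 4.79, 3.55, and 2.53 CPM (1.15, standard error 0.22; host 1.42). No treated library overlapped an untreated library in these 4 introns.

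With every member included, 125 short introns were higher and 22 lower after IFN-α (background 0.975% and 0.122%), and relative to the host 0 were higher and 8 lower (0.0283% and 0.0587%). Of the 116 higher members with a host, the host was also called higher in 96. Their median log2 changes were 1.80 for the intron, 1.73 for the host, and 0.09 for the ratio. In the list of IFN-induced genes, 89 of 130 members were higher and 1 lower (median 1.68). After ADAR+hnRNPC targeting 107 of the same 130 were higher and 0 lower (median 2.15), and after hnRNPC targeting 15 were higher and 0 lower (median 0.37), both on day 5. Of the 15, 7 lay in IRF7. Only 11 members of the list passed the filter on low counts, and none of these was called after hnRNPC targeting, with a median of 0.35 against CTRL and −0.05 against GFP-targeted cells. Relative to the host, the medians were −0.08, 0.02, and 0.16. The list was chosen with earlier results on these cells known, so its direction is no separate evidence. Of 108 members in proteasome subunit genes, 7 were higher after IFN-α and 0 lower. These were 4 in PSME2, 2 in PSME1, and 1 in PSMB8, genes that are also in the list of IFN-induced genes, so they are counted in both lists.

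**Figure D4:**
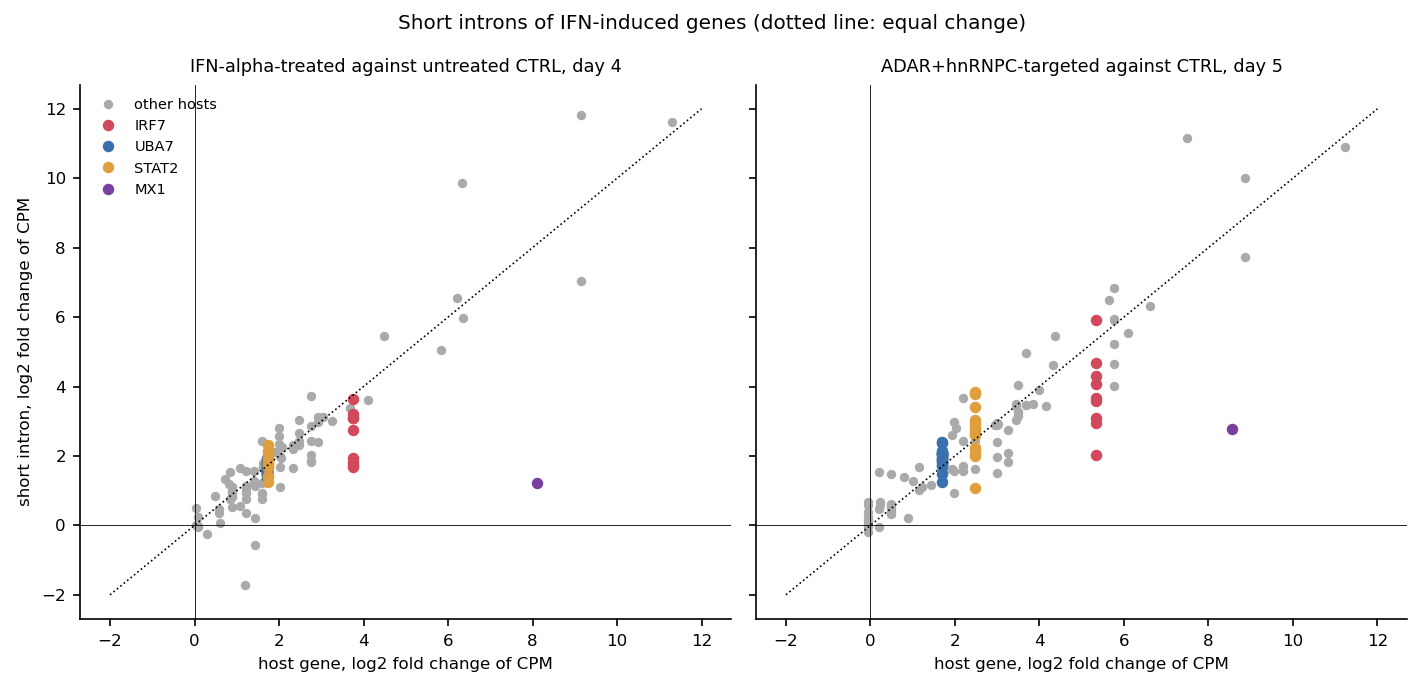
Each point is a short intron of an IFN-induced gene, with the log2 fold change of the host gene on the x axis and that of the intron on the y axis, for IFN-α (left) and ADAR+hnRNPC targeting (right); fold changes of introns without counts in CTRL cells depend on the prior count of the fit. UBA7 and STAT2 introns lie around the dotted line of equal change, while most of those of IRF7 and the MX1 piece lie below it, MX1 at 1.23 against 8.11 after IFN-α.

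The following hosts, chosen after their values were seen, show how introns of a gene varied. All 18 short introns of UBA7 were higher after IFN-α, with log2 fold changes of 1.36 to 1.94 and a host change of 1.71, and after ADAR+hnRNPC targeting, with 1.26 to 2.41 and 1.70. After hnRNPC targeting alone 3 were called, and the range was −0.15 to 1.15. STAT2, a transcription factor downstream of the type I IFN receptor, had 14. After IFN-α 11 were higher (1.25 to 2.30 over the 14, host 1.73) and after ADAR+hnRNPC targeting 13 (1.09 to 3.84, host 2.47). ADAR, itself an IFN-induced gene, had 5, and all were higher after IFN-α (1.66 to 1.81, host 1.61) and after ADAR+hnRNPC targeting (1.55 to 2.04, host 1.745), while the range after hnRNPC targeting alone was −0.20 to 0.28 with 0 called. PSME2 had 7, of which 4 were higher after IFN-α (0.77 to 1.58 over the 7, host 1.21) and 1 after ADAR+hnRNPC targeting (0.34 to 1.47, host 0.49). TYMP had 3, of which 1 was higher after IFN-α (−0.57 to 1.15 over the 3, host 1.42) and 3 after ADAR+hnRNPC targeting (1.56 to 2.42, host 2.20). After hnRNPC targeting alone 1 of the TYMP introns was called, and the range was 0.92 to 1.73 beside a host change of 0.13.

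In IRF7, the factor that amplifies the IFN response, all 9 short introns were higher after ADAR+hnRNPC targeting, by 2.02 to 5.92, but the gene rose by 5.33 and 7 of the 9 were lower relative to it. The host was at 9.17, 6.99, and 10.5 CPM in CTRL and 296, 339, and 437 CPM in ADAR+hnRNPC-targeted cells. The intron at chr11:614535-614796 fell from 4.86, 3.65, and 2.72 to 0.870, 0.791, and 0.721 per 100 host counts, and that at chr11:614400-614475 from 3.58, 4.26, and 3.23 to 1.89, 1.75, and 1.72. Only chr11:612801-612998 is an annotated intron free of exons, and it fell from 2.90, 5.07, and 1.94 to 0.643, 0.614, and 0.548. The rest are also exonic or have ends that match no annotated intron, among them a piece of 2 bp. The interval at chr11:615008-615096 had 3, 0, and 9 counts in CTRL cells of day 5, so its rise rests on few counts. After IFN-α 7 of the 9 were higher (1.67 to 3.65 over the 9, host 3.75) and 2 were lower relative to the host. MX1, an antiviral GTPase, showed the widest gap. Its only member was a 211-bp piece (chr21:42792231-42792441) whose ends match no annotated intron and which went from 0.133, 0.106, and 0.143 CPM to 0.952, 0.823, and 0.841 CPM after ADAR+hnRNPC targeting, while the gene went from 5.31, 4.99, and 6.94 to 1667, 2064, and 2734 CPM. Per 100 host counts the piece fell from 2.5, 2.13, and 2.06 to 0.057, 0.040, and 0.031. After IFN-α the gene stood at 1147, 1374, and 1335 CPM and the piece at 0.350, 0.363, and 0.138 CPM, against 4.71, 4.81, and 4.47 and 0.193, 0.081, and 0.094 CPM in untreated cells.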

How the data were processed

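Total RNA of 48 THP-1 libraries (16 groups of 3) was measured by 100-bp paired-end sequencing after depletion of ribosomal RNA. The authors aligned reads to GRCh37 with STAR 2.5.4a and deposited raw counts of uniquely mapped fragments per gene and per intron, made with featureCounts from GENCODE 19, with introns as gene intervals without the exons of principal transcripts. The strand setting is not given in the sources used here, and an overlap of 1 base counts. Editing percentages came from the deposited counts of edited and total reads at A-to-I sites. Study samples without an intron table were not used here.

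Members were joined to genes by containment and to GENCODE 44 lifted to GRCh37. Intron counts were tested with edgeR 4.0.16 (quasi-likelihood, R 4.3.3) over all introns with a mean log2 CPM of 1 or more, with library sizes of gene totals times TMM factors, and relative to the host with the log of the host count plus 0.5 as offset. Host genes (13187) were tested from a mean log2 CPM of 0.5. Calls needed a log2 change of at least 1 and a Benjamini-Hochberg adjusted p of at most 0.05. Standard errors are the log2 change divided by the root of F. The fit over introns with at least 1000 summed counts held 99827 introns, or 92008 with a host. Each library had 95107690 to 152829008 gene counts. The fits were also run on simulated counts with known changes.

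Alternatives were DESeq2 1.42.0, limma 3.58.1, other scalings, filters, references and controls, a replicate block, across days or within each day because same-numbered libraries of a day deviated together in part, and leaving out each library. The named introns were the 8 called higher and the 8 called lower relative to the host with the largest change. The 6 higher and 6 lower in abundance were taken likewise, at most 1 per host. Both were taken in hnRNPC- and ADAR+hnRNPC-targeted cells of day 5 and after IFN-α. The 6 with the most counts and the 2 with the most counts of each of 10 lists were added. Members and lists were chosen with earlier results of these data known. Some items are not reported here.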

Additional observations from a re-analysis of the deposited data

Results flagged for a closer look

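In 11 cases, the response of a named short intron to hnRNPC targeting on day 5 differed between cells with and without ADAR targeting by a test of that difference (edgeR, adjusted over all introns tested). Over all short introns tested, 1 was higher and 2 lower relative to the host, beside 0.974% of all introns in either direction. In abundance, 10 were positive (1.15%) and 63 negative (7.27%), beside 2.26% and 2.59% of all introns. The named cases therefore do not give the direction of the members as a whole. Relative to the host gene, the difference was 1.42 on the log2 scale for CHKB (standard error 0.28, adjusted p = 0.00269) and −1.02 for TYMP (standard error 0.23, adjusted p = 0.0107). The CHKB ratio was 41.3, 42.7, and 60.05 per 100 host counts in hnRNPC-targeted and 106, 134, and 104 in ADAR+hnRNPC-targeted cells, so that the latter lay above the former without overlap. This interval is also exonic in full, and in the latter cells it held more counts than its host gene.

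In abundance, the response was larger with ADAR targeting for introns of ZC3HAV1, UNC93B1, and UBA7. The difference was 1.48 for ZC3HAV1 (standard error 0.28, adjusted p = 0.000334) and 1.43 for UNC93B1 (0.32, 0.00235). In UBA7 it was 1.47 for the intron at 49848525 (0.32, 0.00154), 1.12 for that at 49847862 (0.37, 0.0390), and 1.08 for that at 49847617 (0.35, 0.0343). None of these introns was called in the interaction relative to the host. The UBA7 host changed by 0.27 on the log2 scale after hnRNPC and by 1.70 after ADAR+hnRNPC targeting. The ZC3HAV1 host changed by 0.17 and 1.66.

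The single base of PLEKHA2 had a difference of 1.45 (standard error 0.19, adjusted p = 3.94e-07), with 1.45, 1.17, and 1.11 CPM in hnRNPC-targeted and 3.38, 3.36, and 3.58 CPM in ADAR+hnRNPC-targeted cells. The response was smaller with ADAR targeting for MFSD10 (−1.43, standard error 0.34, adjusted p = 0.00344), STT3B (−1.40, 0.43, 0.0259), and TCIRG1 (−1.34, 0.42, 0.0267). All 3 are GC-rich members, and GC-rich short introns stood higher on day 5 in every targeted group. The part of that shift in these differences was not tested.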

How the results depend on the processing

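Alternatives gave 322 counts of called short introns within 1.5 times the main count and 62 beyond it. The 322 include cases of 0 in both fits, among them every fit of ADAR or GFP targeting that left out a library. Without a filter on low counts, calls in abundance were 67, 269, and 877 after hnRNPC targeting on days 3, 4, and 5, 42, 256, and 1400 after ADAR+hnRNPC targeting, 1, 8, and 2 after ADAR targeting, 1, 5, and 29 after GFP targeting, and 157 after IFN-α. At a summed count of at least 1000 they were 81, 288, and 969, then 46, 290, and 1490, and 147 after IFN-α. Relative to the host they were 28, 91, and 231 (hnRNPC), 14, 64, and 355 (ADAR+hnRNPC), and 8 (IFN-α) without a filter, and 34, 100, and 258, then 15, 72, and 395, then 8, and 28 in the interaction, at the summed count. These settings test more introns. With GFP-targeted cells as control, abundance calls after hnRNPC targeting were 3 on day 3 and 22 on day 5, and calls relative to the host 2 on day 4 and 7 on day 5. With intron totals, abundance calls were 82 on day 5 of ADAR+hnRNPC targeting (55 higher and 27 lower, main 29 and 101) and 3 on day 5 of GFP targeting, where DESeq2 gave 1. With the other introns of the host as reference, 7 and 13 were called on days 3 and 4 of hnRNPC targeting, 34 on day 5 of ADAR+hnRNPC targeting, and 2 after IFN-α. On day 5 of hnRNPC targeting that split was 8 higher and 9 lower (main 11 and 2), and after ADAR+hnRNPC targeting 18 and 16 (main 10 and 5). Restricted to annotated introns free of exons, 0, 1, and 1 were called after hnRNPC targeting and 1, 1, and 1 after ADAR+hnRNPC targeting, which tests fewer members. Causes other than the number of introns tested were not tested.

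Leaving out each library gave 3 to 10, 13 to 20, and 31 to 63 abundance calls after hnRNPC targeting, 4 to 6, 10 to 16, and 115 to 147 after ADAR+hnRNPC targeting, 0 after ADAR or GFP targeting, and 9 to 14 after IFN-α. Set against the host it gave 1 to 2, 5 to 7, and 9 to 16, then 2, 4 to 5, and 14 to 16, then 0 to 1 after IFN-α, and 1 to 4 in the interaction. Abundance calls on day 3 of hnRNPC targeting fell to 3 without CTRL replicate 3 and to 4 without hnRNPC replicate 1, and those on day 4 rose to 20 without hnRNPC replicate 3. After IFN-α they rose to 14 without replicate 2. The interaction fell to 1 without replicate 2 of CTRL or of ADAR+hnRNPC.

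The correlation of deviations had a median of 0.325, 0.384, and 0.132 between same-numbered libraries of days 3, 4, and 5, against −0.176, −0.288, and −0.074 between different numbers. Every pair was above 0.1 in 8 of 13 comparisons, but 2 pairs after hnRNPC targeting and 3 after ADAR+hnRNPC targeting were not on day 5. With a replicate block across days, 46 and 131 short introns were called in abundance on day 5 of hnRNPC and ADAR+hnRNPC targeting, 13 and 14 relative to the host, and 4 in the interaction. With the block within each day, added after seeing the data, these were 48, 131, 12, 15, and 4, and 2 short introns were called in abundance after GFP targeting on day 5, where the main count was 0. All other counts under this block stayed within 1.5 times the main count. Over the named introns, the sign reversed once: ENSG00000124593 had 0.98 against the other introns of its host and −1.11 against its exons. In the fits of named introns in abundance, added after seeing the data, 16 of 26 calls in ADAR+hnRNPC-targeted, 12 of 20 in hnRNPC-targeted, and 5 of 6 in IFN-α-treated cells were kept in every fit. Against the host, 6 of 13 and 4 of 11 were kept after ADAR+hnRNPC and hnRNPC targeting. Of 11623 members only 866 passed the filter, so depth limits what could be called in the rest.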
